A study of Mus musculus with 11 samples.

Results

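The 8 genes described here carry cholesterol into, through and out of the cell: Scarb1, Lrp8 and Vldlr take lipoproteins up at the cell surface, Npc2 and Npc1 release cholesterol from the lysosome, Soat1 stores it as ester, and Abca1 and Abcg1 export it. They were chosen by name for these roles and are 8 of the 24490 genes counted. The libraries came from primary granulosa cells of the ovaries of RjOrl:SWISS mice, lipofected with 30 pmol of siRNA using Lipofectamine RNAiMax; the mix was taken off at 5 h and RNA was collected at 30 h. Of the 11 libraries, 8 were from cells given siRNA against Akt1 (pools 1 to 4, with 2 libraries each), a serine/threonine kinase downstream of PI3K, and 3 were from cells given a nontargeting scramble siRNA. Each pool combined 3 of 4 siRNAs to Akt1, leaving out siRNA 9 (pool 1), siRNA 7 (pool 2), siRNA 8 (pool 3) or siRNA 6 (pool 4), if pool numbers mean the same in the protocol and in the sample titles, which is assumed here. All groups share the strain, the lipofection and the times. Whether replicates are independent cultures is not stated, so the spread behind each p-value may be technical.

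Granulosa cells surround the oocyte and make steroid hormones from cholesterol. SR-BI, the product of Scarb1, takes cholesteryl ester selectively from HDL, while receptors such as those made from Lrp8 and Vldlr bring whole lipoproteins to the lysosome by endocytosis, where NPC2 hands cholesterol to NPC1 for export from the organelle. Free cholesterol is esterified by SOAT1 for lipid droplets, enters steroid synthesis, which begins in the mitochondrion, or leaves the cell through ABCA1 and ABCG1. The genes of these exporters are known targets of the sterol-sensing LXR nuclear receptors.

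The 250 bases before the annotated start are shown for the 3 genes whose levels moved together most closely across libraries, Abca1, Soat1 and Vldlr. The sequences are from RefSeq on GRCm38.p6, 5′ to 3′ on the strand of the gene, and 5 of the 8 genes had an entry there (Abca1, Soat1, Vldlr, Lrp8 and Npc2). Abca1 lies at chr4:53159896-53160145 (minus strand), Soat1 at chr1:156474329-156474578 (minus strand) and Vldlr, for the first of its starts, at chr19:27216234-27216483 (plus strand). Capitals mark matches, on either strand, to the 10 motifs searched.
Abca1: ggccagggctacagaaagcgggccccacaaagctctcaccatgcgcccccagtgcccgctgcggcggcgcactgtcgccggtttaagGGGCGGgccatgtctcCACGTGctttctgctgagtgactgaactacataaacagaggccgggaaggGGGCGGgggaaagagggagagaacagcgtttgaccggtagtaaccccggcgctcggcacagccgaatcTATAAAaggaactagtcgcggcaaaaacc
Soat1: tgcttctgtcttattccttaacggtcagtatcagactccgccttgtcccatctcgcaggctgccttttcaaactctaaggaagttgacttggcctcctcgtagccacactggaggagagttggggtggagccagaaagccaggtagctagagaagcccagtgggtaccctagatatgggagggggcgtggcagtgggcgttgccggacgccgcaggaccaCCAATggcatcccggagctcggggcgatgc
Vldlr: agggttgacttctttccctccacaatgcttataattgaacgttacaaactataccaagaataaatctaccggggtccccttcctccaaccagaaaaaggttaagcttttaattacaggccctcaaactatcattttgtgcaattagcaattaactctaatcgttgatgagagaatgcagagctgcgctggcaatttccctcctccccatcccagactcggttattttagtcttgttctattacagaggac

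In the Abca1 stretch the marked letters are an E-box (CACGTG) starting 147 bases before the start, a TATA box (TATAAA) at 29 bases and GC boxes (GGGCGG) at 163 and 97 bases. Soat1 holds a CCAAT box (CCAAT) 30 bases before its start, and the Vldlr stretch shown holds no match. The stretch before another Vldlr start has a GC box and a CCAAT box on the opposite strand. Of all 32851 such stretches of mouse promoters, 6.02% hold the E-box, 12.4% the TATA box, 32.7% the GC box and 33.8% the CCAAT box. The other motifs were the core of the cAMP response element (TGACG, in 17.8% of promoters), a sterol response element (TCACNCCAC, 1.05%), the NR5A site (AAGGTCA, 4.08%), the nuclear receptor site within it (AGGTCA, 14.0%), the LXR direct repeat known as DR4 (0.0152%) and a FOXO site (TGTTTAC, 3.17%). None of these other motifs occurs in the 3 stretches shown. The stretch before the first Lrp8 start holds no match, while those before later starts within the gene hold TGACG and AAGGTCA. The stretch of Npc2 holds GC and CCAAT boxes.

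Libraries held 23851293 to 32643158 gene reads each, and 14144 genes, all 8 of these included, had enough reads to be tested. Akt1 itself was counted at 52.7 to 81.7 CPM (reads per 1000000 gene reads of the library) in the pools and at 399 to 529 CPM in scramble, and the pools kept 11.9% to 17.8% of the scramble mean. Of 12 granulosa markers, 10 averaged at least 1 CPM, and Inha (inhibin alpha) reached 1241 to 2076 CPM in the pools and 2128 to 3486 CPM in scramble, but Fshr, the receptor for follicle-stimulating hormone, stayed below 0.367 CPM and Amh below 0.828 CPM in every library. The 12 markers summed to 3482 to 3604 CPM in pool 1, to 3986 to 4359 in pool 2, to 2634 to 2793 in pool 3 and to 3311 to 3565 in pool 4, against 4485 to 5186 in scramble. In bulk RNA, fewer cells of a type and less RNA per cell cannot be told apart. Macrophages also express Abca1 and Soat1; their 10 markers summed to 7.51 to 8.71 CPM in pool 1, 7.02 to 9.10 in pool 2, 10.7 to 12.8 in pool 3 and 8.25 to 9.24 in pool 4, against 6.96 to 10.5 in scramble, 3 of the 10 averaged at least 1 CPM, and Ptprc and Adgre1 were at most at 0.167 CPM in every library.

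Scramble replicate 1 stood apart, with a median correlation of 0.948 with the other libraries across genes, against at least 0.989 for each of the rest. Against scramble replicates 2 and 3 its genes differed by transcript length, from a median of 0.84 log2 in the shortest of 5 length classes (median 1315 exon bases) to −0.92 in the longest (7206 bases). The cholesterol genes are mostly long, and in that library Abca1, with 10262 exon bases, differed by −1.79 log2, Lrp8 by −0.96, Npc1 by −0.79, Soat1 by −0.71, Vldlr by −0.70 and Abcg1 by −0.26. Scarb1, with 2521 exon bases, differed by 0.14, and Npc2, with 3299, by 0.82. Counts of these genes called against scramble are therefore given with and without this library. So are values over all pools, except for Abcg1. Values by pool, and those of related genes in the lists below, are mostly given without it. Tests between pools were also run on the 8 pool libraries alone.

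**Figure D1:**
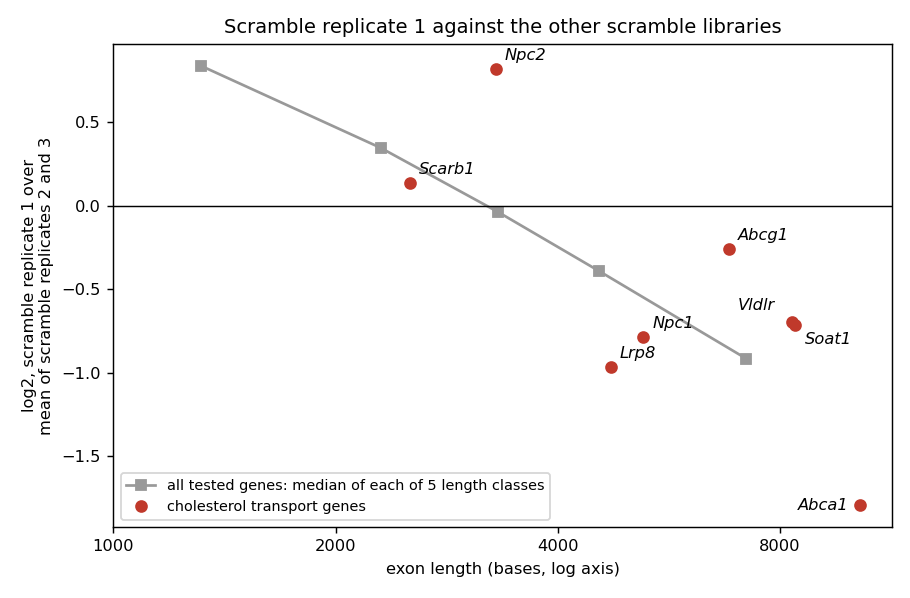
Difference of scramble replicate 1 from the mean of scramble replicates 2 and 3 (log2, vertical axis) against exon length (bases, log axis) for the 8 genes (circles) and the median of 5 length classes of all tested genes (squares). Medians run from 0.84 in the shortest class to −0.92 in the longest; Abca1 sits lowest at −1.79 and Npc2 highest at 0.82.

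Per exon length (CPM per kilobase of exon, RPKM), Soat1 had the highest level, 91.6 to 141 RPKM in the pools and 98.5 to 172 in scramble, then Scarb1 with 81.2 to 94.6 and 102 to 117, and Npc2 with 61.3 to 75.6 and 75.1 to 133. A wide gap followed: Npc1 had 13.4 to 17.2 RPKM in the pools and 8.96 to 15.7 in scramble. Vldlr had 11.8 to 15.1 and 9.18 to 15.4, Lrp8 7.93 to 11.5 and 7.46 to 14.9, Abca1 5.57 to 14.0 and 4.13 to 15.03, and Abcg1, the lowest, 1.59 to 1.89 and 1.45 to 1.76. Neighbours in this order overlapped in range except Npc2 above Npc1 and Abca1 above Abcg1, which held in 11 of 11 libraries. Npc1 was above Vldlr in 7 of 11 libraries and Lrp8 above Abca1 in 8. The length used is all annotated exons of a gene merged, which can exceed the length of the transcript expressed. This order therefore depends on the length used.

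**Figure D2:**
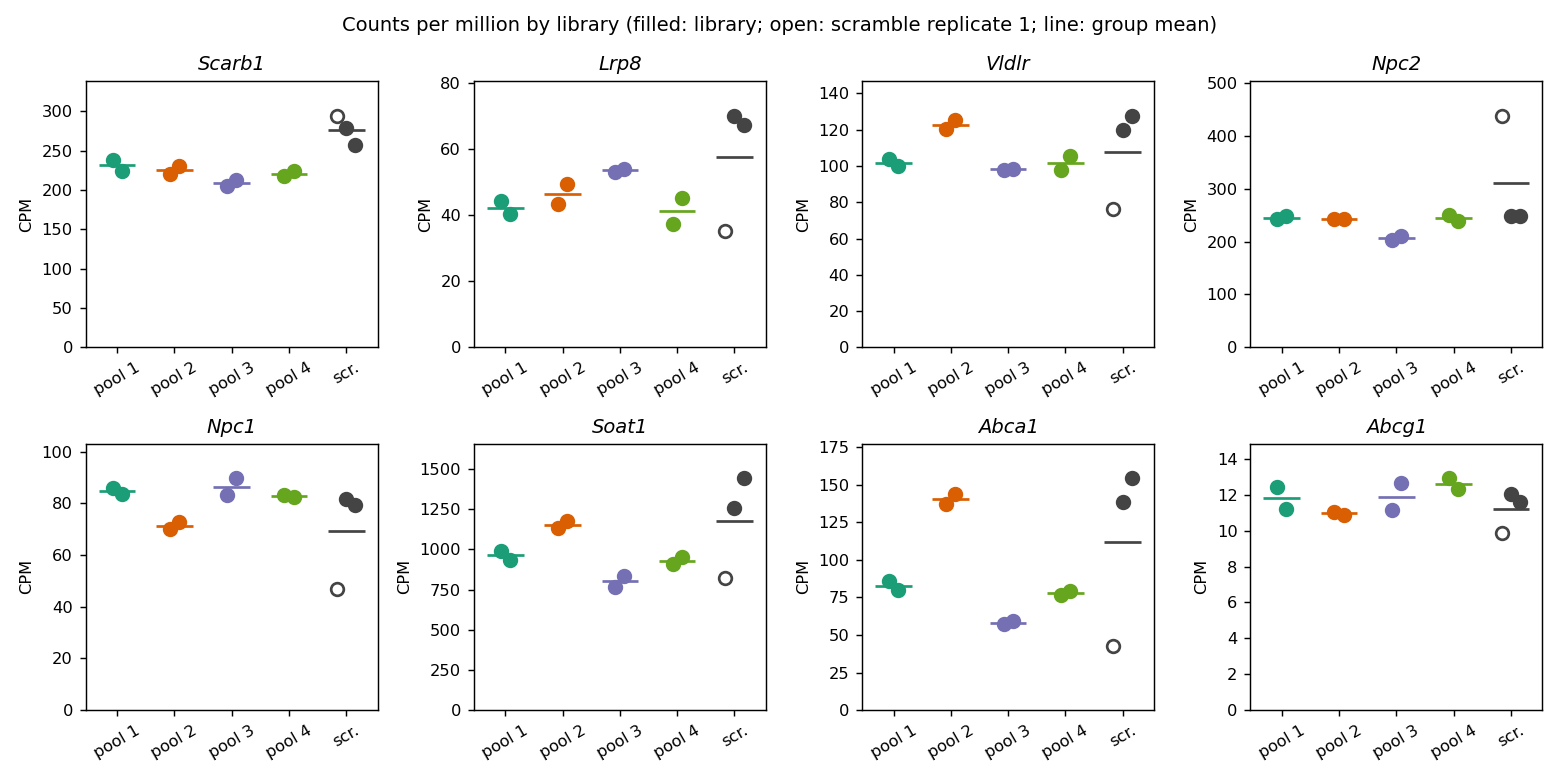
Level of each gene in CPM (vertical axis, from 0) in every library of pools 1 to 4 and of scramble; filled points are libraries, the open point is scramble replicate 1 and lines are group means. Scarb1 is at 204.7 to 238.5 CPM in the pools, below all scramble libraries, while Abca1 in pool 2 (137 and 144 CPM) is near scramble replicates 2 and 3 (139 and 154 CPM) and at 57.2 to 85.7 CPM in the other pools.

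Taken over all pools, the uptake receptors Scarb1 and Lrp8 fell against scramble once scramble replicate 1 was left out, and no gene of the 8 passed the edgeR test with all libraries. With all 11 libraries, 0 of 8 passed (background 0.00707% of genes, which is Akt1 alone), with 2 of 8 at an unadjusted p below 0.05 in edgeR (Scarb1 and Npc2) and 1 called by DESeq2 (Scarb1). Without scramble replicate 1, 2 of 8 were called, both lower, against a background of 0.469% of all genes called and 0.356% called lower. Backgrounds, here and below, are shares of genes called at the edgeR adjusted p. Counts at an unadjusted p or by DESeq2 have no such share beside them. The median log2 fold change over the 8 was −0.34 with all libraries and −0.30 without that one, against −0.02 and 0.00356 over all genes tested. Differences between pools count as error in this comparison, and each pool is therefore set against scramble on its own as well.

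Scarb1, on chromosome 5 (chr5:125277087-125341094 in mm10, minus strand), was counted at 238.5 and 224 CPM in pool 1, 221 and 230.0 in pool 2, 205 and 213 in pool 3 and 218 and 224 in pool 4, against 294.5, 279 and 257 CPM in scramble replicates 1, 2 and 3. All 8 pool libraries were below all 3 scramble libraries, an order that 2.67% of all tested genes showed. Scarb1 averaged 222 ± 10.3 CPM over the pools and 277 ± 18.8 CPM over scramble (SD, n = 8 and 3). The log2 fold change over all pools was −0.36 ± 0.07 (SE; edgeR adjusted p = 0.0857) with all libraries and −0.33 ± 0.06 (adjusted p = 0.0491) without scramble replicate 1. Leaving out a further library moved that value between −0.39 and −0.27 and the adjusted p between 0.0242 and 0.458, and the call was lost without any one of scramble replicates 2 or 3 or any library of pools 1, 3 and 4. The authors' deposited table gives Scarb1 a log2 fold change of −0.35 with a standard error of 0.07 and an adjusted p of 0.000135 for the pools against scramble. Of the 8, Scarb1 alone is below 0.05 in the authors' deposited table, as 9.72% of genes with an adjusted p there are; Npc1 and Npc2 have no p listed. The summed granulosa markers were also below scramble in all 8 pool libraries. Of these markers, Inha, Hsd17b1 and Cyp19a1 each lay below scramble, and the ranges of the others overlapped it. The sum of 6 luteal markers was below scramble too. It was 2351 to 2597 CPM (pool 1), 2360 to 2590 (pool 2), 1838 to 1967 (pool 3) and 2278 to 2407 (pool 4), against 3058 to 3925 CPM in scramble. Only Hsd3b1 (998 to 1416 CPM in the pools, 1469 to 1913 in scramble) and Sfrp4 (752.5 to 1200 and 1497 to 1917) each lay below scramble. The other luteal markers overlapped it in range. Of the 6, 5 averaged at least 1 CPM and none was at 0 in all libraries. The part of either set of markers in this result was not tested.

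Pool by pool, Scarb1 fell in each of the 4 when scramble replicate 1 was left out, with log2 fold changes of −0.28 ± 0.05 for pool 1 (SE; edgeR adjusted p = 8.66e-05), −0.27 ± 0.05 for pool 2 (0.00108), −0.45 ± 0.05 for pool 3 (7.68e-08) and −0.34 ± 0.05 for pool 4 (7.74e-06). These 4 comparisons share their scramble libraries. With all 11 libraries edgeR called Scarb1 in pool 3, at −0.47 ± 0.09 (adjusted p = 0.013), and not in the other pools. That call was lost without pool 3 replicate 1 (adjusted p = 0.155) or replicate 2 (0.104). On the same libraries DESeq2 called Scarb1 in pools 1, 3 and 4, and limma-voom with sample quality weights called it in all 4. Among the pools alone, pool 3 was lower than the mean of pools 1 and 4 (−0.14 ± 0.03, adjusted p = 0.00255), a call lost without pool 3 replicate 1 (0.0751). Reads of Scarb1 could be shared with Gm42633, which overlaps it on the same strand.

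Lrp8, the receptor for apolipoprotein E and reelin (chr4:107802261-107876840, plus strand), had 44.3 and 40.3 CPM in pool 1, 43.4 and 49.4 in pool 2, 53.1 and 54.0 in pool 3 and 37.4 and 45.1 in pool 4, against 35.2, 70.1 and 67.2 CPM in scramble replicates 1, 2 and 3. Every pool library was below scramble replicates 2 and 3, as were 5.29% of tested genes, and every one was above scramble replicate 1. All pools together gave −0.37 ± 0.18 (edgeR adjusted p = 0.197) with all libraries and −0.64 ± 0.11 (adjusted p = 0.0436) without scramble replicate 1. Leaving out a further library gave values of −0.67 to −0.60 and adjusted p of 0.0242 to 0.434, and Lrp8 no longer passed once scramble replicate 2 or 3, any library of pools 1 and 4, or pool 3 replicate 2 was dropped.

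Without scramble replicate 1, Lrp8 fell in every pool, at −0.77 ± 0.07 for pool 1 (SE; edgeR adjusted p = 4.92e-08), −0.58 ± 0.07 for pool 2 (2.76e-05), −0.45 ± 0.07 for pool 3 (2.09e-05) and −0.79 ± 0.07 for pool 4 (3.43e-08). Of the 8 genes Lrp8 alone was called higher in pool 3 than in the mean of pools 1 and 4, by 0.33 ± 0.06 on the 8 pool libraries (adjusted p = 0.000247). Lrp8 overlaps 2 antisense genes, Lrp8os1 and Lrp8os2, and whether counting used strand is not given in the sources used here, so its reads and theirs cannot be told apart.

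Vldlr, the receptor for very low density lipoprotein (chr19:27216484-27254231, plus strand), had 104 and 99.8 CPM in pool 1, 120.5 and 125 in pool 2, 97.9 and 98.5 in pool 3 and 98.1 and 106 in pool 4, against 76.3, 119.6 and 128 CPM in scramble replicates 1, 2 and 3. Pool 2 lay within the range of scramble replicates 2 and 3, the other 3 pools lay below both, as 16.5% of tested genes did, and scramble replicate 1 was below every pool library. Over all pools Vldlr did not pass, at −0.07 ± 0.15 (edgeR adjusted p = 0.779) with all libraries and −0.28 ± 0.11 (0.204) without scramble replicate 1. Without that library it fell in pools 1, 3 and 4, at −0.35 ± 0.05 (adjusted p = 9.48e-06), −0.42 ± 0.05 (2.95e-07) and −0.34 ± 0.05 (1.27e-05), and was at −0.03 ± 0.05 (0.847) in pool 2.

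Npc2, the soluble lysosomal protein that binds cholesterol (chr12:84754562-84773152, minus strand), had 242.5 and 247 CPM in pool 1, 242 and 243 in pool 2, 202 and 211 in pool 3 and 249 and 239 in pool 4, against 438, 248 and 248 CPM in scramble replicates 1, 2 and 3. Pools 1, 2 and 4 were close to scramble replicates 2 and 3, pool 3 was below every other library, as in 9.52% of tested genes, and scramble replicate 1 was far above all. Without scramble replicate 1, Npc2 fell in pool 3 (−0.35 ± 0.04, edgeR adjusted p = 3.45e-07), and did not pass in pool 1 (−0.09 ± 0.04, 0.122), pool 2 (−0.05 ± 0.04, 0.624) or pool 4 (−0.08 ± 0.04, 0.125). Over all pools it was at −0.44 ± 0.15 (adjusted p = 0.116) with all libraries and −0.14 ± 0.09 (0.35) without that library.

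Npc1, the membrane protein that passes cholesterol out of the lysosome (on chromosome 18), had 86.1 and 83.6 CPM in pool 1, 70.0 and 72.7 in pool 2, 83.4 and 89.7 in pool 3 and 83.5 and 82.5 in pool 4, against 46.8, 81.8 and 79.4 CPM in scramble replicates 1, 2 and 3. Here pool 2 was the lowest of the pools, both its libraries were below scramble replicates 2 and 3, as in 17.4% of tested genes, and scramble replicate 1 was below every pool library. Without scramble replicate 1, Npc1 fell in pool 2 (−0.19 ± 0.05, edgeR adjusted p = 0.02), and was within 0.02 log2 of scramble in pools 1, 3 and 4 (adjusted p of 0.79 to 0.942). That call was lost without scramble replicate 2 (adjusted p = 0.0827) and without either pool 2 library (0.257 and 0.0654). Over all pools Npc1 was at 0.18 ± 0.15 (adjusted p = 0.395) with all libraries and at −0.05 ± 0.07 (0.701) without scramble replicate 1. Npc1 overlaps Rmc1 and Gm15956 on the other strand, so its counts carry the same uncertainty as those of Lrp8.

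Soat1, the enzyme that esterifies cholesterol in the endoplasmic reticulum (chr1:156424525-156474331, minus strand), had the highest level of the 8 per merged exon length. It had 992 and 934 CPM in pool 1, 1132 and 1178 in pool 2, 767.5 and 836 in pool 3 and 908 and 953 in pool 4, against 825, 1261 and 1442 CPM in scramble replicates 1, 2 and 3. All pool libraries were below scramble replicates 2 and 3, as those of Lrp8 were, and pool 2 was the highest and pool 3 the lowest of the pools. Scramble replicate 1 lay within the range of pool 3.

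Against scramble replicates 2 and 3, Soat1 fell in every pool, with log2 fold changes of −0.56 ± 0.06 for pool 1 (edgeR adjusted p = 1.28e-07), −0.24 ± 0.06 for pool 2 (0.0118), −0.84 ± 0.06 for pool 3 (8.86e-11) and −0.60 ± 0.06 for pool 4 (4.12e-08). The call in pool 2 was lost without scramble replicate 3 (adjusted p = 0.0944) or pool 2 replicate 1 (0.165). Over all pools Soat1 did not pass, at −0.33 ± 0.18 (adjusted p = 0.222) with all libraries and −0.55 ± 0.15 (0.122) without scramble replicate 1. Soat1 overlaps Gm37648 on the other strand.

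Abca1, the transporter that loads cholesterol onto apolipoprotein A-I (chr4:53030787-53159895, minus strand), varied most of the 8 between pools. It had 85.7 and 79.9 CPM in pool 1, 137 and 144 in pool 2, 57.2 and 59.0 in pool 3 and 76.8 and 79.5 in pool 4, against 42.3, 139 and 154 CPM in scramble replicates 1, 2 and 3. Pool 2 overlapped scramble replicates 2 and 3, the other pools were below both (16.5% of tested genes), and scramble replicate 1 was below every pool library. Relative to the mean of scramble replicates 2 and 3, Abca1 was at 56.5% (pool 1), 96.0% (pool 2), 39.7% (pool 3) and 53.4% (pool 4).

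Without scramble replicate 1, Abca1 fell in 3 pools, with log2 fold changes of −0.89 ± 0.05 in pool 1 (edgeR adjusted p = 4.08e-11), −1.42 ± 0.05 in pool 3 (1.68e-14) and −0.97 ± 0.05 in pool 4 (1.24e-11), and was at −0.07 ± 0.05 in pool 2 (0.507). With scramble replicate 1 kept, Abca1 passed in no pool by edgeR or by DESeq2. It then passed in pools 1, 3 and 4 by edgeR with a transcript length offset (adjusted p = 0.0373, 0.00115 and 0.0223). It also passed in these pools by limma-voom with sample quality weights (adjusted p of at most 8.23e-09). Over all pools it was at −0.35 ± 0.38 (adjusted p = 0.524) with all libraries and −0.75 ± 0.32 (0.221) without scramble replicate 1.

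Abcg1, the transporter that passes cholesterol to HDL (chr17:31057675-31117988, plus strand), had the fewest reads. It had 12.4 and 11.2 CPM in pool 1, 11.1 and 10.9 in pool 2, 11.2 and 12.6 in pool 3 and 12.9 and 12.3 in pool 4, against 9.90, 12.1 and 11.6 CPM in scramble replicates 1, 2 and 3. The ranges of pools 1 and 3 enclosed scramble replicate 2 or 3, and no test passed: without scramble replicate 1 the log2 fold changes ran from −0.13 in pool 2 to 0.03 in pool 4 (edgeR adjusted p of 0.517 to 0.844), and over all pools Abcg1 was at −0.06 ± 0.08 (0.646). Gm25447 overlaps Abcg1 on the same strand.

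Counted over the 8 genes without scramble replicate 1, pool 1 had 5 called, pool 2 had 4, pool 3 had 6 and pool 4 had 5, all lower. The background was 28.8% of genes called for pool 1, 4.39% for pool 2, 48.8% for pool 3 and 31.0% for pool 4, and the share called lower was 17.0%, 2.69%, 26.1% and 17.8% in the same order of pools. Medians over the 8 were −0.31, −0.16, −0.44 and −0.34, beside medians over all genes within 0.0051 of 0. With all 11 libraries, 0 of 8 were called in pools 1, 2 and 4 (background 1.93%, 0.00707% and 2.57%) and 1 in pool 3, lower (background 11.2% called and 6.84% called lower). At an unadjusted p below 0.05, edgeR then gave 1 gene in each of pools 1, 2 and 4 (Scarb1). DESeq2 called 1 for pool 1, 0 for pool 2, 3 for pool 3 and 1 for pool 4. No share of all genes is given for these counts.

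**Figure D3:**
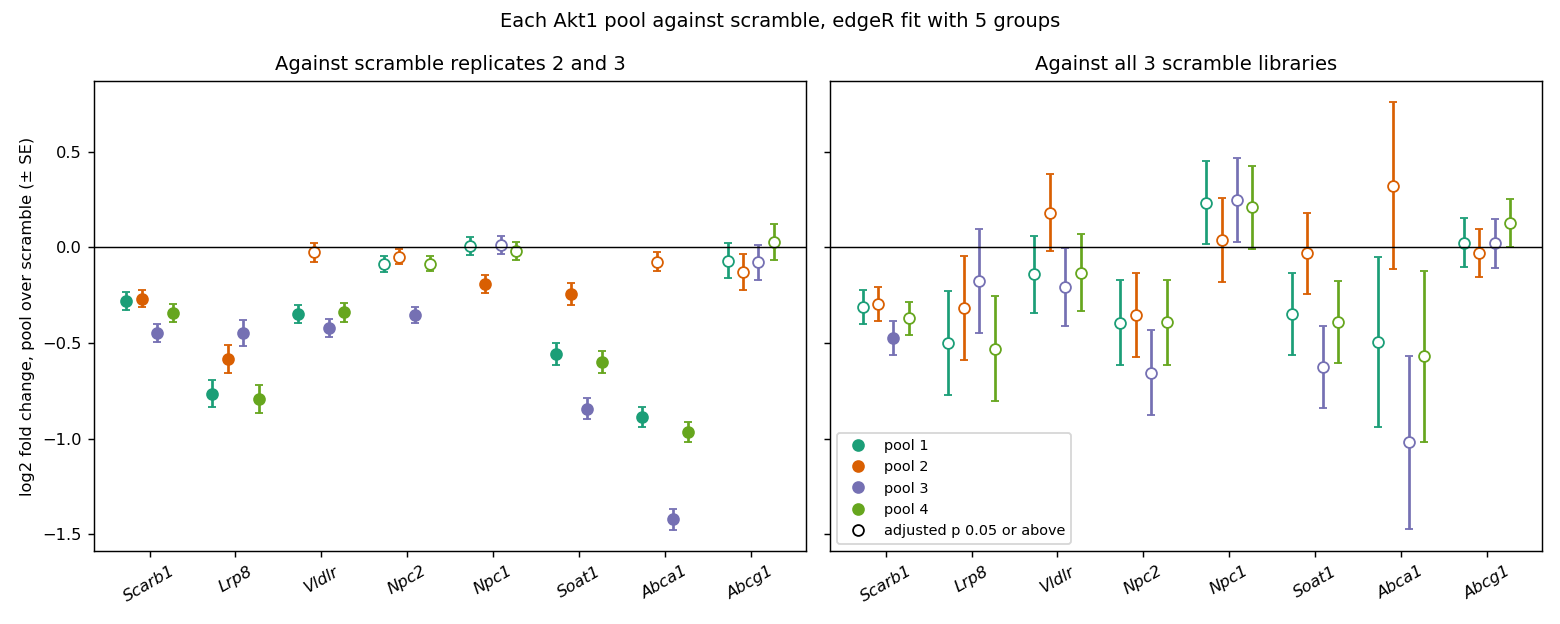
Log2 fold change of each pool over scramble (vertical axis, bars are SE) for the 8 genes, from edgeR fits with 5 groups against scramble replicates 2 and 3 (left) and against all 3 scramble libraries (right); filled points have an adjusted p below 0.05. Without scramble replicate 1, Abca1 is at −1.42 in pool 3 and −0.07 in pool 2; with it, the only filled point is Scarb1 in pool 3, at −0.47.

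Tests between pools need no scramble library. On the 8 pool libraries alone, 7 of 8 genes differed among the 4 pools, against a background of 48.6% of genes, and Abcg1 did not pass (edgeR adjusted p = 0.498). The 7 held in each fit that left out a further library. With the scramble libraries in the fit, which then set part of the spread, 0 of 8 were called (background 2.46%), with 0 at an unadjusted p below 0.05 and 0 called by DESeq2; without scramble replicate 1, 7 of 8 were called (background 42.8%).

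Abca1, Soat1 and Vldlr were higher in pool 2 than in the other pools. Abca1 was higher in pool 2 than in the mean of pools 1, 3 and 4 by 1.02 ± 0.03 log2, or 2.03-fold (edgeR adjusted p = 2.04e-16). Soat1 was higher by 0.43 ± 0.03 (4.85e-10) and Vldlr by 0.35 ± 0.03 (1.11e-08). For these 3 genes every library of pools 1, 3 and 4 was below both of pool 2, as were 18.7% of tested genes.

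The other genes differed less between pool 2 and the rest. Npc2 was higher in pool 2 than in the mean of the others by 0.13 ± 0.03 (edgeR adjusted p = 0.000558) and Scarb1 by 0.09 ± 0.03 (0.0156), a call lost without pool 2 replicate 2 (0.285). In CPM, which is without TMM scaling, pool 3 was the lowest pool for both genes and pool 2 was not the highest. The tests use TMM scaling, whose factors were 0.979 and 0.980 in pool 2 and 1.008 to 1.026 in pools 1, 3 and 4. A lower factor raises the scaled level, so on the tested scale pool 2 need not lie below pools 1 and 4. Npc2 averaged 243 CPM in pool 2 and 245 (pool 1), 207 (pool 3) and 244 CPM (pool 4) in the others. Scarb1 averaged 225 CPM in pool 2 and 231 (pool 1), 209 (pool 3) and 221 CPM (pool 4) in the others. Npc1 was lower in pool 2 (−0.19 ± 0.03, 9.75e-05). Lrp8 (0.09 ± 0.06, 0.216) and Abcg1 (−0.08 ± 0.07, 0.368) did not pass. In all, 6 of 8 were called, 5 higher and 1 lower, beside a background of 47.6% called, 25.3% higher and 22.3% lower; with all 11 libraries 0 of 8 were called (background 5.25%), 1 at an unadjusted p below 0.05 (Abca1) and 0 by DESeq2.

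Pool 3 was lower than the mean of pools 1 and 4 for Abca1 (−0.50 ± 0.04, edgeR adjusted p = 6.70e-09), Npc2 (−0.27 ± 0.03, 7.29e-07), Soat1 (−0.27 ± 0.04, 7.91e-06) and Scarb1 as above, and higher for Lrp8. Vldlr (−0.08 ± 0.04, 0.0986), Npc1 (0.02, 0.713) and Abcg1 (−0.06, 0.615) did not pass. This made 5 of 8, 4 lower and 1 higher, beside a background of 29.9% called, 17.2% lower and 12.7% higher. With all 11 libraries 0 of 8 were called (background 0.0141%), 0 at an unadjusted p below 0.05 and 0 by DESeq2. Akt1 was at 79.3 and 81.7 CPM in pool 3 and at 52.7 to 63.9 CPM in pools 1, 2 and 4, so the pool with the lowest Abca1, Soat1 and Npc2 kept the most Akt1 RNA; whether the 2 are linked was not tested. The summed granulosa markers given above were also lowest in pool 3 and highest in pool 2 among the pools. The luteal sum was lowest and the macrophage sum highest in pool 3. Markers of surface epithelium, of which 6 of 6 averaged at least 1 CPM, summed to 110 to 112 CPM in pool 1 and 127 to 135 in pool 2. Their sum was 89.6 to 93.1 CPM in pool 3 and 107 to 109 in pool 4, against 121 to 154 in scramble. The part of these marker sets in the differences between pools was not tested.

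**Figure D4:**
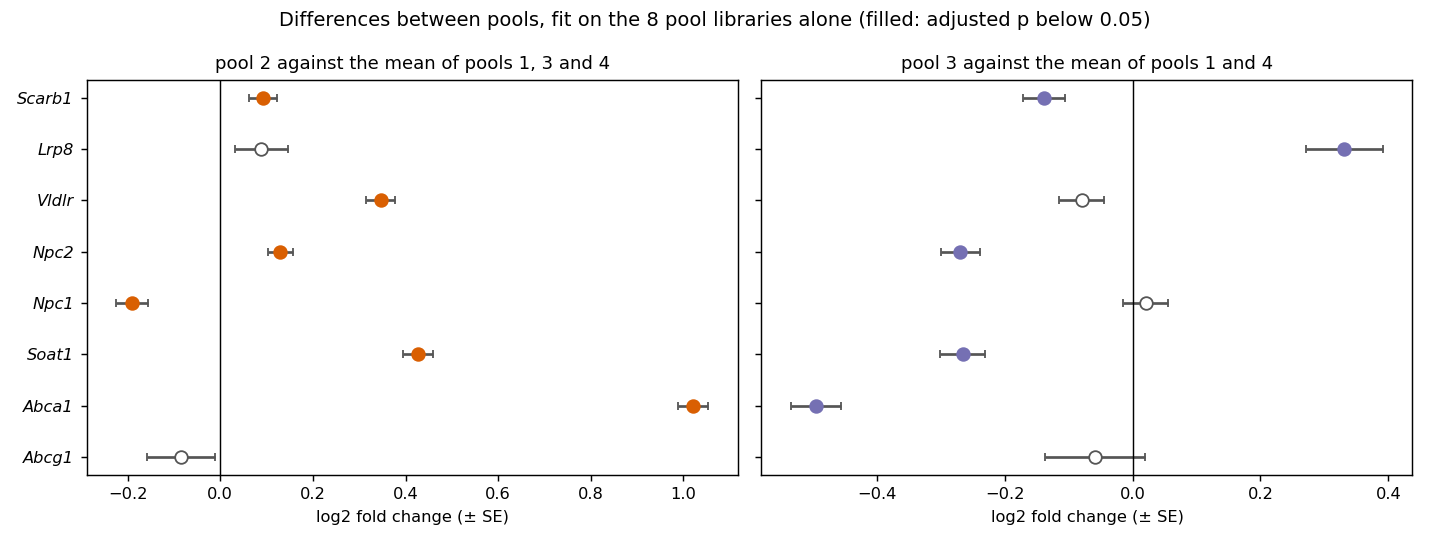
Log2 differences between pools (horizontal axis, bars are SE) on the 8 pool libraries alone, for pool 2 over the mean of pools 1, 3 and 4 (left) and pool 3 over the mean of pools 1 and 4 (right); filled points have an adjusted p below 0.05. Abca1 is at 1.02 on the left and −0.50 on the right, while Lrp8 is at 0.09 and 0.33.

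Across the 10 libraries without scramble replicate 1, log2 CPM of Vldlr and Abca1 had a Pearson r of 0.973, Soat1 and Abca1 0.969 and Vldlr and Soat1 0.951; with all 11 libraries these were 0.973, 0.94 and 0.881. These points are replicates of 5 treatments, not independent conditions. Npc1 ran against that order, with r of −0.545 with Vldlr and −0.538 with Abca1 over 10 libraries, but 0.479 and 0.357 over 11. Among 10677 genes, those most like Abca1 over 10 libraries were Il7 (interleukin 7) and Sft2d2 (both 0.997), and those most like Soat1 were Hdlbp, which encodes the HDL-binding protein vigilin (0.994), and Abca8b (0.993). Over 11 libraries r was 0.637 for Il7, 0.921 for Sft2d2, 0.877 for Hdlbp and 0.646 for Abca8b. Vldlr was most like Golgb1 (0.993) and Robo1 (0.991), which were at 0.882 and 0.981 over 11.

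Scarb1 was most like Lhfp and Alas1, the enzyme that starts heme synthesis (both 0.983, and 0.988 and 0.975 over 11 libraries). For Lrp8 they were Atp2a2, a calcium pump of the endoplasmic reticulum (0.965 and 0.914 over 11), and Pcyt1b (0.958 and 0.952), and for Npc2 Rmnd5b (0.975 and 0.946) and Sv2a (0.974, but 0.0846 over 11). Hao2 was among the genes most like Npc1 (0.96, and 0.0202 over 11). Abcg1 had the weakest likeness, 0.864 with Malsu1 and 0.863 with Vmac, and both turned negative over 11 libraries (−0.514 and −0.528).

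The genes around these 8 in the pathway were counted in 6 lists, which do not hold the 8 genes themselves. Over all pools with all libraries, edgeR called 0 of 115 tested list genes, with 35 at an unadjusted p below 0.05. DESeq2 called 13. No share of all genes is given for the unadjusted p or for DESeq2, so these counts are not read as results about the lists. By pool with all 11 libraries, edgeR called at most 1 gene of any list in pool 1, 0 in pool 2 and at most 2 in pool 4. Pool 3 then had 1 to 5 called per list. The counts against scramble that follow leave out scramble replicate 1, and the backgrounds of both are given above. Of lipoprotein receptors and their adaptors, 16 of 19 were tested; 5 were lower in pool 1, 1 was lower and 1 higher in pool 2, 9 were lower and 3 higher in pool 3 and 5 lower and 1 higher in pool 4, with list medians of −0.05, −0.05, −0.17 and −0.09. Dab2, a clathrin adaptor for lipoprotein receptors, was higher in pool 2 than in the mean of the other pools (0.22 ± 0.03, edgeR adjusted p = 7.43e-07), as was Lrp4 (0.70 ± 0.13, 0.000137).

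Of genes for lysosomal release and sterol transfer between membranes, 20 of 21 were tested; 4 fell in pool 1, 2 fell and 1 rose in pool 2, 8 fell and 1 rose in pool 3 and 5 fell and 1 rose in pool 4. On the pool libraries alone, 10 were lower in pool 3 than in pools 1 and 4 and 0 higher (list median −0.09), beside 17.2% of all genes lower and 12.7% higher (median −0.00419). Osbpl5 and Osbp, which exchange lipids between membranes, were higher in pool 2 than in the other pools by 0.92 ± 0.03 (edgeR adjusted p = 5.11e-15) and 0.55 ± 0.03 (1.20e-12), and Smpd1, acid sphingomyelinase, by 0.29 ± 0.03 (2.07e-07). Gramd1b, which moves cholesterol from the plasma membrane to the endoplasmic reticulum, fell over all pools without scramble replicate 1 (−0.32 ± 0.06, 0.0436), a call that held in 2 of 10 fits leaving out a further library.

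Among 15 tested of 20 genes for storage and hydrolysis of cholesteryl ester, 1 fell and 2 rose in pool 1, 0 were called in pool 2 (2 at an unadjusted p below 0.05 in edgeR), 2 fell and 3 rose in pool 3 and 1 fell and 2 rose in pool 4. Pnpla2, the lipid droplet lipase ATGL, was higher in pool 2 than in the other pools by 0.71 ± 0.03 (edgeR adjusted p = 2.92e-13), while the droplet coat genes Plin2 and Plin3 were lower there (−0.20 ± 0.03, 2.53e-05, and −0.18 ± 0.03, 3.63e-05). Against scramble replicates 2 and 3, Plin2 rose in pool 1 (0.29 ± 0.05, 4.79e-05), pool 3 (0.38 ± 0.05, 6.33e-07) and pool 4 (0.32 ± 0.05, 1.82e-05). It was at 0.12 ± 0.05 (0.154) in pool 2. Scramble replicate 1 had 116.3 CPM of Plin2, above every pool library (at most 113.3 CPM). With that library kept, Plin2 passed in no pool (edgeR adjusted p of 0.406 to 0.834). The list median between pool 2 and the rest was −0.04, against −0.00727 for all genes.

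Of efflux, apolipoprotein and LXR genes, 19 of 22 were tested, and 3 fell and 2 rose in pool 1, 3 fell in pool 2, 5 fell and 4 rose in pool 3 and 4 fell and 2 rose in pool 4, with medians from −0.12 to −0.00285. Abca2, a transporter related to Abca1, was higher in pool 2 than in the other pools by 0.22 ± 0.04 (edgeR adjusted p = 3.67e-05), and Rxra, the dimer partner of LXR, by 0.26 ± 0.04 (2.15e-05). Ncoa5 was lower there (−0.31 ± 0.04, 8.39e-07).

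Sterol synthesis genes and their SREBP regulators were all 28 tested; 12 were lower and 4 higher in pool 1, 18 lower and 0 higher in pool 2, 10 lower and 7 higher in pool 3 and 12 lower and 4 higher in pool 4; the medians were −0.13, −0.34, −0.08 and −0.12. Between pool 2 and the mean of the other pools, 17 were lower and 4 higher (median −0.14), beside 22.3% of all genes lower and 25.3% higher (median −0.00727). Over all pools without scramble replicate 1, Msmo1 (−0.35 ± 0.06, edgeR adjusted p = 0.0363) and Mvd (−0.47 ± 0.09, 0.0466), both enzymes of the pathway, fell. Of 10 fits that left out a further library, the call held in 4 for Msmo1 and 2 for Mvd. Insig1, which holds the SREBP complex in the endoplasmic reticulum, and Dhcr7, the last enzyme of a branch of the pathway, were lower in pool 2 than in the other pools (−0.63 ± 0.04, 8.71e-12, and −0.54 ± 0.03, 4.03e-12). In pool 2 the exporter Abca1 was higher, and Insig1 and Dhcr7 lower, than in the other pools. The other exporter, Abcg1, did not pass there. Of the 4 list genes called higher in pool 2, Nfe2l1 was at 0.26 ± 0.02 (edgeR adjusted p = 1.34e-08).

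In steroid synthesis from cholesterol, 15 of 17 genes were tested; 7 fell and 2 rose in pool 1, 6 fell in pool 2, 8 fell and 4 rose in pool 3 and 7 fell and 1 rose in pool 4, with medians of −0.17, −0.16, −0.33 and −0.21. Fdx1, which carries electrons to the mitochondrial steroid enzymes, fell over all pools (−0.40 ± 0.05, edgeR adjusted p = 0.0247), and the call held in 5 of 10 fits leaving out a further library. Star, which brings cholesterol into the mitochondrion, was lower in pool 2 than in the other pools (−0.56 ± 0.03, 1.67e-13), whereas Nr5a1, the transcription factor SF-1, and Hsd17b1 were higher by 0.45 ± 0.03 (8.79e-11) and 0.65 ± 0.05 (2.89e-10).

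**Figure D5:**
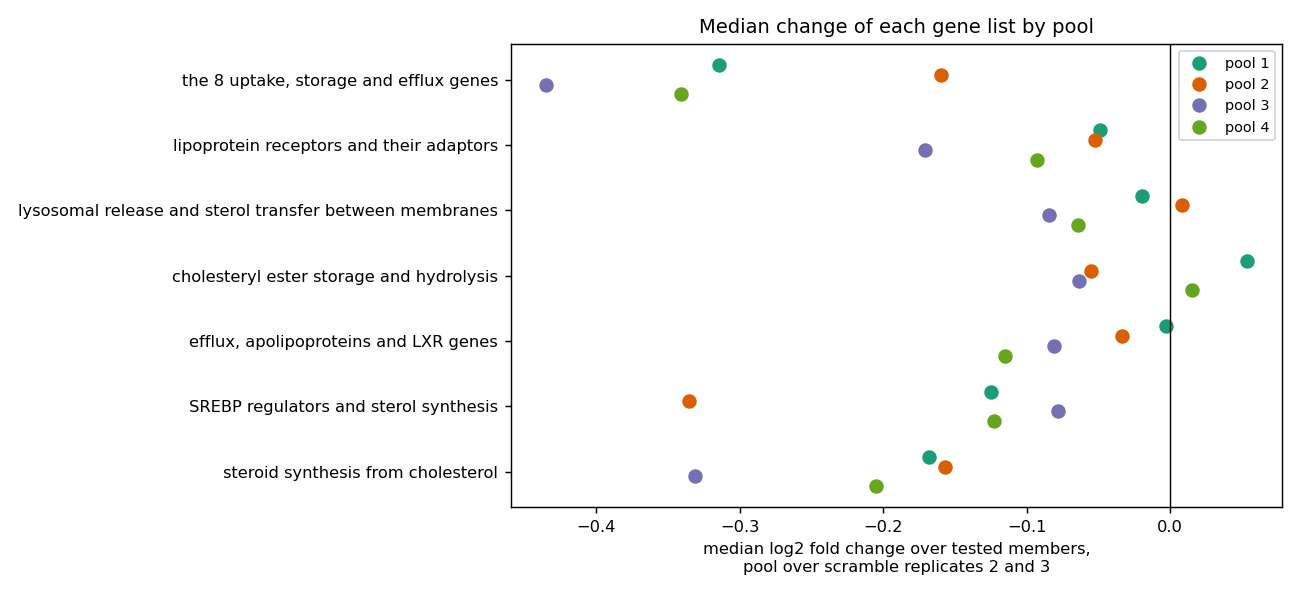
Median log2 fold change of each gene list (horizontal axis) in pools 1 to 4 over scramble replicates 2 and 3, over the tested members of the 8 genes (top) and of the 6 lists. The medians of the 8 genes run from −0.44 in pool 3 to −0.16 in pool 2, and in the sterol synthesis list pool 2 is lowest at −0.34.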

How the data were processed

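Per the labels' protocols, 1.3 µg of RNA per sample went into a stranded mRNA library, read as single 75-base reads. Tools in the submitters' processing notes are featureCounts 1.5.0-p2, TopHat2, DESeq2, cutadapt 1.9.1, bcl2fastq 2.15.0 and FastQC 0.11.5, with the build mm10; no source used here gives their settings. The deposited counts are whole reads per gene symbol, with no scaling by the authors; 92 ERCC spike-in rows (0.268% to 0.788% of the counts) were kept out. Per the file headers, the authors' deposited table for the pools against scramble holds a mean signal, log2 fold changes with standard errors, a Wald score, p-values and adjusted p-values.

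Counts were tested with edgeR 4.0.16 (R 4.3.3, limma 3.58.1): TMM scaling, filterByExpr with a count minimum of 10, two-sided quasi-likelihood F tests and Benjamini-Hochberg adjustment over all tested genes, called below 0.05 with no minimum fold. All pools against scramble used 2 groups, and the 8 pool libraries were treated as independent although they come as 2 per pool; all else used 1 fit with 5 groups, or with 4 on the pool libraries alone. Standard errors are the fold change over the root of F. CPM is per 1000000 gene reads, without TMM. Exon lengths are the merged annotated exons of each gene in GENCODE vM21. The steps were tested on simulated data with changes larger than those of the 8 genes and no library that differed by transcript length. How well they find smaller changes was not tested. Alternatives were other scalings and filters, DESeq2 1.42.0, limma-voom with and without quality weights, a transcript length offset, a replicate block, and fits leaving out each library; fits that left out a further library beside scramble replicate 1, or beside all scramble libraries, were chosen after seeing the data. Likeness used log2 CPM with a prior count of 2 among genes averaging at least 2. Named list genes were up to 3 per list and test, by smallest p, that passed over all pools or among the pools. Some genes that these rules take are not reported here. The 8 genes and the lists were chosen with earlier results of these data known.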

Additional observations from a re-analysis of the deposited data

Results flagged for a closer look

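On the 8 pool libraries alone, which hold no scramble library, 7 of the 8 genes differed among the 4 pools by the edgeR F test with 3 degrees of freedom, and each is given here because groups under one contrast differed. The adjusted p was 1.36e-15 for Abca1, 8.01e-10 for Soat1, 1.08e-07 for Vldlr, 4.7e-07 for Npc2, 0.000768 for Lrp8, 0.000864 for Npc1 and 0.00106 for Scarb1. Abca1, Soat1 and Vldlr were highest in pool 2, Npc2 was lowest in pool 3, Npc1 was lowest in pool 2 and Lrp8 was highest in pool 3. Since 48.6% of all tested genes differed among the pools in this fit, the number of these genes that did is read against that share.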

How the results depend on the processing

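With all 11 libraries, calls over the 8 genes depended on how scramble replicate 1 was handled, and numbers of genes called follow. Over all pools 0 were called; DESeq2, the transcript length offset, the mean of the 4 pools in the fit with 5 groups and leaving out both pool 2 libraries gave 1 each, the replicate block 2, sample quality weights in limma-voom 5, leaving out 1 library 0 to 2, and leaving out scramble replicate 1 with a further library 0 to 3. Against scramble, pool 1 had 0, with 1 by DESeq2, 5 with quality weights, 3 with the length offset and 0 to 5 leaving libraries out. Pool 2 had 0, with 2 under quality weights and 0 to 4 leaving libraries out. Pool 3 had 1, with 3 by DESeq2, 6 with quality weights, 4 with the length offset and 0 to 6 leaving libraries out. Pool 4 had 0, with 1, 5, 4 and 0 to 5 under the same settings. Among the pools 0 were called, with 7 under quality weights, 2 with the length offset, 7 on the 8 pool libraries alone and 0 to 7 leaving libraries out. Pool 2 against the other pools had 0, with 6, 3, 6 and 0 to 7 under those settings; pool 3 against pools 1 and 4 had 0, with 5 under quality weights, 5 on the pool libraries alone and 0 to 6 leaving libraries out. The other scalings, filters and limma-voom moved no count. Without scramble replicate 1 the share of all genes called rose too. It went from 1.93% to 28.8% for pool 1, 0.00707% to 4.39% for pool 2, 11.2% to 48.8% for pool 3 and 2.57% to 31.0% for pool 4. No such share is given for DESeq2, quality weights, the length offset, the replicate block or the further fits. Counts under those settings are therefore not read as particular to the 8 genes.

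Directions turned as follows, in log2 fold change against scramble. With quality weights, over all pools Npc1 was at −0.0166 and Abcg1 at −0.038, Abcg1 was at −0.0773 in pools 1 and 3, Npc1 at −0.0204 in pool 4, and in pool 2 Vldlr was at −0.00186, Npc1 at −0.193 and Abca1 at −0.032. With the length offset, Abcg1 was at −0.217 over all pools, −0.216 in pool 1, −0.214 in pool 3 and −0.117 in pool 4, and in pool 2 Vldlr was at −0.136 and Npc1 at −0.104. In limma-voom Soat1 was at 0.00799 in pool 2. Deviations of same-numbered libraries from their group means correlated at −0.046 to 0.073, so no strong effect shared by replicate number was seen. In a pool with 2 libraries the deviations mirror each other, and these values cannot tell whether libraries were paired. A fit with the replicate block, in which scramble replicate 3 has no partner, put Vldlr at 0.0972 and Abca1 at 0.0491 over all pools, Vldlr at 0.0249 in pool 1 and 0.0294 in pool 4, Lrp8 at 0.00278 in pool 3, and Soat1 at 0.166 and Abcg1 at 0.00835 in pool 2; the cause was not tested.

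Leaving out 1 library, or scramble replicate 1 and a further one, over all pools Abcg1 ran from −0.0824 to 0.101, Npc1 from −0.0626 to 0.327 and Vldlr from −0.32 to 0.0794. In pool 1 Abcg1 ran from −0.144 to 0.0994, Npc1 from −0.0143 to 0.376 and Vldlr from −0.396 to 0.00475; in pool 2 Abca1 from −0.147 to 0.632, Abcg1 from −0.147 to 0.035, Npc1 from −0.217 to 0.179, Soat1 from −0.334 to 0.15 and Vldlr from −0.07 to 0.328. In pool 3 Abcg1 ran from −0.164 to 0.107 and Npc1 from −0.0326 to 0.39, and in pool 4 Abcg1 from −0.00463 to 0.191, Npc1 from −0.0378 to 0.351 and Vldlr from −0.39 to 0.0137. Between pools, where all scramble libraries and a pool library were also left out together, Lrp8 ran from −0.0126 to 0.18 for pool 2 against the others, and for pool 3 against pools 1 and 4 Abcg1 ran from −0.147 to 0.0284 and Npc1 from −0.0276 to 0.0758. Of all results by setting, 1335 kept direction and side of the threshold, 451 passed it anew, 2 lost it and 124 turned. Each pool has 2 libraries, reads of overlapping genes cannot be told apart, and Abcg1 had the fewest reads of the 8.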
